A study of Mus musculus with 6 samples.

Results

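The genes described here are the 10 that hold the G1 checkpoint at the level of the D cyclins and the retinoblastoma proteins: the D cyclins Ccnd1, Ccnd2 and Ccnd3, the kinases Cdk4 and Cdk6, the kinase inhibitors Cdkn1c, Cdkn2c and Cdkn2d, and the pocket protein genes Rb1 and Rbl1. They were chosen by symbol for their role in G1, with earlier results of these data known. All 10 were found among the 17348 genes listed and among the 13340 genes with enough counts to be tested. Bulk RNA sequencing was done on the cortex of mouse embryos at E13.5, with 3 libraries of Ybx1 cKO embryos and 3 of WT littermates. The cKO embryos carried floxed Ybx1 alleles and the Nestin-Cre transgene. Nestin-Cre is active in neural progenitors and is inherited by their progeny across the nervous system, so cells of other origin, such as blood cells, can keep the gene. The labels call the controls WT, and so do the study's sequencing methods, while elsewhere the study defines its control genotype as Ybx1 fl/fl without Cre. Whether the controls of these libraries carried floxed alleles is therefore uncertain.

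A cell in G1 decides between another division and exit from the cycle. D cyclins bind Cdk4 or Cdk6, and the complexes phosphorylate Rb1 and its relative Rbl1, which then release the E2F factors that switch on the genes of DNA replication. The inhibitors of the INK4 family, Cdkn2c (p18) and Cdkn2d (p19), bind Cdk4 and Cdk6 directly, while Cdkn1c (p57) belongs to the Cip/Kip family and also acts on the later kinases. In the embryonic cortex Ccnd2 and Ccnd1 are expressed in progenitors of the ventricular zone, and Cdkn1c is known as a gene of cells that leave the cycle.

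The D cyclins and the paired kinases are similar proteins, so it matters whether their reads can be told apart. The longest identical stretch between the coding sequences of Ccnd1 and Ccnd2 was 20 bases, which is shown in capitals within 30 bases of each gene (GENCODE transcripts, GRCm38, coding strand, both genes on the minus strand of the genome). The Ccnd1 window lies in coding exon sequence at chr7:144939537-144939566 and the Ccnd2 window at chr6:127150623-127150652.
Ccnd1: cttacTTCAAGTGCGTGCAGAAGGAgattg
Ccnd2: cctatTTCAAGTGCGTGCAGAAGGAcatcc

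Cdk4 and Cdk6 also shared at most 20 bases, shown in the same way from coding exon sequence at chr10:127064938-127064967 and chr5:3429094-3429123, both on the plus strand.
Cdk4: ccgtcAAGCTGGCTGACTTTGGCCTagcta
Cdk6: agataAAGCTGGCTGACTTTGGCCTtgccc

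Shared runs were shorter for the other pairs, at 14 bases for Ccnd2 and Ccnd3, 17 for Ccnd1 and Ccnd3, 14 for Rb1 and Rbl1, and 11 for Cdkn2c and Cdkn2d. Ccnd3 is the member with a near copy elsewhere, since 294 of the 9167 different 31-base words in its transcripts also occur in a processed pseudogene, Ccnd3-ps. Counted with no tolerance, its estimated counts were not whole numbers in 6 of 6 libraries, nor were those of Ccnd1 in 5, whereas the other 8 genes had whole counts in every library. Of all genes listed, 14.8% had a count that was not whole in any of the libraries, so the members lie near that share. Transcripts of 7 of the 10 genes share at least 100 such words with genes on the opposite strand (all but Cdkn2c, Cdkn2d and Rbl1). The share of all genes with such an overlap is not at hand. The overlaps were 1043 words for Ccnd1 with LTO1, 611 for Cdk4 with Tspan31 and 567 for Cdkn1c with the antisense gene Gm44732. Whether counting used strand is not given in the sources used here, so reads of these overlaps cannot be assigned with certainty.

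The deleted gene was checked first. Ybx1, which encodes an RNA-binding protein that reads 5-methylcytosine, was measured in CPM, the counts of a gene as a share of the TMM-scaled total of its library. Its level was 1021, 527 and 1219 CPM in the WT libraries, in the order of their replicate numbers, and 83.0, 117 and 147 CPM in the cKO libraries. The genotypes did not overlap, and the library labelled WT replicate 2 had an intermediate level. Its log2 fold change was -2.998 (SE 0.33), with an adjusted p of 0.128 by edgeR's quasi-likelihood test. By the same test the adjusted p was 0.0206 without the library labelled WT replicate 2, which was singled out by this same level. With any other single library left out, it lay between 0.236 and 0.953.

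Libraries held between 15907486 and 16282921 estimated counts. The labelled tissue was checked against its markers, and none of the markers of radial glia, intermediate progenitors or cortical neurons was at 0 in any library. Markers of ventral forebrain summed to between 151 and 213 CPM in WT and between 223 and 245 in cKO, without overlap. Mesenchyme markers (Col3a1 the highest) summed to 9.16 to 12.2 CPM in WT and to 9.73, 17.9 and 563 in cKO replicates 1, 2 and 3, and epidermis markers (Krt5 the highest) to 257 CPM in cKO replicate 3 against at most 2.49 in the other libraries. Sums for erythroid cells (Hba-a1), endothelial cells and pericytes (Rgs5), microglia (Csf1r) and choroid plexus (Otx2) overlapped between genotypes, at 640 to 1117, 96.8 to 142, 17.2 to 29.1 and 1.81 to 6.33 CPM over all libraries. The part of these other cells in the values below was not tested, except where a value without cKO replicate 3 is given.

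To ask how the G1 genes rank in the E13.5 cortex, their levels were compared as TPM, which corrects for transcript length. Cdk4 was the most abundant at 1276 ± 32.2 TPM (SD, n = 3 WT libraries), above 99.4% of all genes. Ccnd2 followed at 514 ± 106 TPM and Cdkn1c at 147 ± 20.5 TPM, and the ranges of these genes over the WT libraries were separate from each other and from those below. Rb1, Ccnd1 and Ccnd3 came next with 61.6, 60.4 and 60.0 TPM, and neighbours among them overlapped. Lower mean levels were found for Cdkn2d (53.0 TPM), Rbl1 (44.6), Cdkn2c (37.1) and Cdk6 (17.2), and among these only the ranges of Rbl1 and Cdkn2c overlapped. The WT range of Cdkn2d (51.86 to 54.89 TPM) also overlapped that of Ccnd1 (53.35 to 67.53 TPM). In cKO the order differed only among Ccnd3, Ccnd1 and Rb1, which took the 4th, 5th and 6th places at 67.6, 66.5 and 59.7 TPM.

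Shares within the kinases, the D cyclins and the inhibitors listed were also taken per length. Cdk4 made up between 98.5% and 98.8% of the summed Cdk4 and Cdk6 TPM in all 6 libraries. Ccnd2 made up 78.0%, 81.8% and 82.4% of the summed D cyclin TPM in the WT libraries. Cdkn1c was 61.8% ± 4.37 of the summed TPM of the 3 inhibitors in WT and 59.1% ± 5.65 in cKO (SD, n = 3 each).

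The comparison of the genotypes asked whether loss of Ybx1 in progenitors goes with other levels of these transcripts. By edgeR's quasi-likelihood test, 0 of 10 genes passed an adjusted p of 0.05 in either direction, and across all genes tested the count was also 0 of 13340 (0%). At an unadjusted p of 0.05, 0 of the 10 passed, against 3.57% of all genes (1.81% lower in cKO and 1.75% higher). DESeq2 also called 0 of the 10 after adjustment, with 2 genes higher and 2 lower among all tested. Fold changes were negative for 7 genes and positive for 3, where 49.2% of all genes were negative, and their median was -0.054 on the log2 scale against 0.0019 for all genes. Each p-value here sets the difference between genotypes against the spread between 3 libraries per genotype, described as independent replicates. That spread is estimated partly from all genes. The adjusted p in edgeR was 0.99998 for each of the 10. The low counts are read with the intervals below, since a test that is not passed does not show equal levels.

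**Figure D1:**
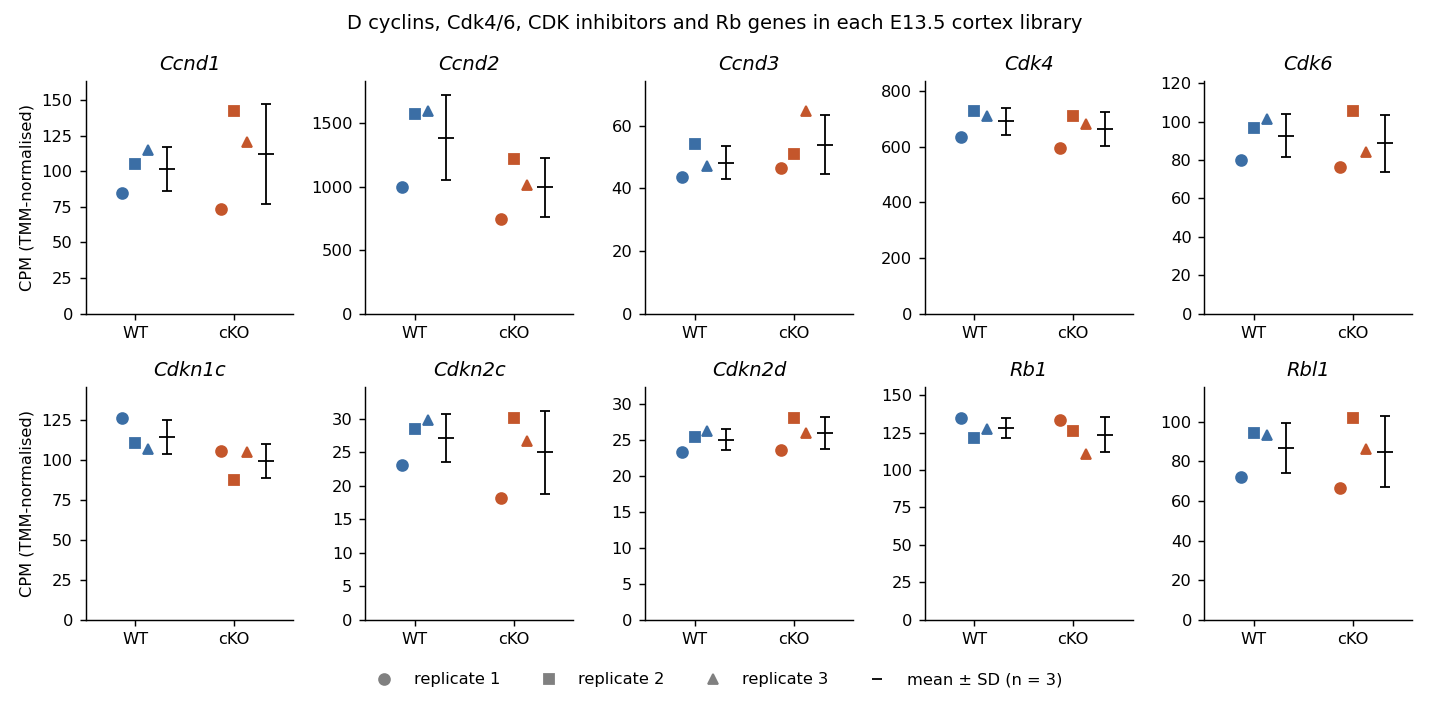
Level of each gene in CPM (linear axes from 0) in the 3 WT and 3 cKO libraries, 1 panel per gene, with the symbol shape giving the replicate number and the bar the mean ± SD. Ccnd2 spans 748 to 1592 CPM, and Cdkn1c is the only panel in which every cKO library lies below every WT library.

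Among the D cyclins, the largest difference in size was that of Ccnd2 (cyclin D2). Its level was 997, 1567 and 1592 CPM in WT replicates 1, 2 and 3 and 748, 1217 and 1014 CPM in the cKO replicates. WT replicate 1 fell below cKO replicates 2 and 3, so the genotypes overlapped. The means were 1385 ± 337 CPM in WT and 993 ± 235 CPM in cKO (SD, n = 3 each), and the fitted level in cKO was 0.717 of that in WT with a 95% interval of 0.502 to 1.02. The log2 fold change of -0.48 (SE 0.22) had an unadjusted p of 0.0626 in edgeR, and 4.75% of all genes had a lower p. Ccnd2 is also a transcript that the study selected for follow-up partly from these libraries, so its direction here is not independent evidence.

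The size of the Ccnd2 difference depended on single libraries. It ranged from -0.67 without WT replicate 1 to -0.31 without cKO replicate 1 on the log2 scale and was negative in all 6 fits that left out a library, with unadjusted p-values between 0.00892 and 0.192 and no adjusted p under 0.742. Without cKO replicate 3, the library with mesenchyme and epidermis markers, it was -0.50. With both that library and the one labelled WT replicate 2 left out, it was -0.40.

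Ccnd1 (cyclin D1), the other D cyclin known from ventricular zone progenitors, gave 85.0, 105 and 115 CPM in the WT libraries and 73.3, 142 and 120 CPM in the cKO libraries. The cKO libraries held both the lowest and the highest value. Its log2 fold change was 0.14 (SE 0.22), with an interval from -0.38 to 0.65, and turned to -0.074 without cKO replicate 2.

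Ccnd3 (cyclin D3) was at 43.7, 54.0 and 47.0 CPM in WT and at 46.4, 51.0 and 64.6 CPM in cKO. Its highest value was in cKO replicate 3. The log2 fold change was 0.16 (SE 0.14) with all libraries and 0.011 without cKO replicate 3.

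Because the D cyclins serve the same kinases, their balance within each library was also described. Ccnd2 made up 73.3%, 75.5% and 71.4% of the summed D cyclin TPM in the cKO libraries, all below the WT values of 78.0% to 82.4% given above. No share over all genes is at hand for a percentage of this kind. The ratio of Ccnd2 to Ccnd1 TPM was 7.36, 9.35 and 8.67 in WT and 6.38, 5.38 and 5.29 in cKO, also without overlap. Relative to Ccnd1 in CPM, 0.637% of all genes tested were lower in every cKO library than in every WT library. Ccnd1 had a larger spread within genotypes than 94.2% of all genes, which division by it adds to genes with another pattern. Both Ccnd1 and Ccnd2 were lowest in replicate 1 of each genotype, so this share does not show how rare the Ccnd2 ratio is. Summed TPM of the 3 D cyclins overlapped, at 503, 691 and 711 in WT and 396, 584 and 534 in cKO.

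**Figure D2:**
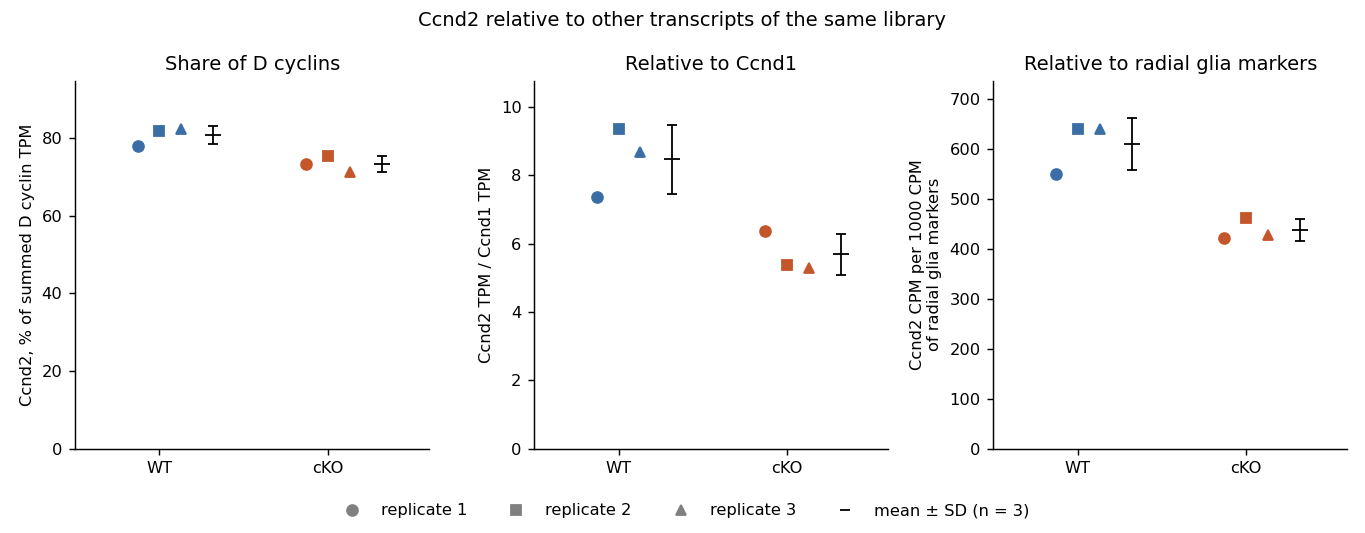
Ccnd2 in each library as a percentage of the summed TPM of the 3 D cyclins (left), as a ratio to Ccnd1 TPM (middle) and in CPM per 1000 CPM of the 8 radial glia markers (right), with axes from 0, replicate numbers as shapes and mean ± SD as bars. In every panel the 3 cKO libraries lie below the 3 WT libraries, with means of 73.4% against 80.7%, 5.68 against 8.46 and 438 against 611. The panels all have Ccnd2 as numerator, so they are not independent.

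The kinases overlapped between genotypes. Cdk4 gave 635, 726 and 709 CPM in WT and 596, 710 and 682 CPM in cKO, and Cdk6 gave 79.9, 96.4 and 101 CPM in WT and 76.3, 105 and 84.4 CPM in cKO. The cKO libraries held the lowest value of both genes, and for Cdk6 also the highest. Log2 fold changes were -0.06 for Cdk4, with a 95% interval of -0.28 to 0.16, and -0.06 for Cdk6, with one of -0.37 to 0.25. Both signs changed when cKO replicate 1 was left out (0.020 and 0.041), and that of Cdk6 also without WT replicate 3 (0.0077).

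Of the inhibitors, Cdkn1c was the gene that separated the genotypes in CPM. It was at 126, 110 and 107 CPM in the WT libraries and at 106, 87.2 and 105 CPM in the cKO libraries, with every cKO library below every WT library. WT replicate 3 (106.6 CPM) and cKO replicate 1 (105.6 CPM) lay next to each other across that gap. Over all genes, 4.83% were lower and 4.21% higher in every cKO library and 9.04% were separate in either direction, so 1 such gene in 10 is near the background. The log2 fold change of Cdkn1c was -0.20 (SE 0.10), with a 95% interval from -0.44 to 0.03 and an unadjusted p of 0.0765, and it stayed between -0.25 and -0.12 when single libraries were left out. In TPM the genotypes overlapped for Cdkn1c, at 170.82, 136.24 and 134.6 in WT and 140.75, 108.25 and 135 in cKO. Its unadjusted p by limma on log2(TPM + 1) was 0.158.

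The INK4 genes overlapped between genotypes. Cdkn2c was at 23.0, 28.5 and 29.7 CPM in WT and 18.1, 30.1 and 26.7 CPM in cKO (log2 fold change -0.12, SE 0.19), and turned to 0.077 without cKO replicate 1. Cdkn2d had the smallest spread within genotypes of the 10, at 23.4, 25.4 and 26.3 CPM in WT and 23.7, 28.1 and 26.0 CPM in cKO (0.05, SE 0.10). TPM summed over the 3 inhibitors was 256, 226 and 230 in WT and 219, 204 and 225 in cKO, with the highest cKO value (225.5) just under the lowest WT value (226.4). No share over all genes is at hand for such a sum.

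Rb1 and Rbl1, the substrates of the kinases, also overlapped. Rb1 was at 135, 121 and 128 CPM in WT and 134, 126 and 111 CPM in cKO (log2 fold change -0.05, interval -0.25 to 0.15). Rbl1 (p107) gave 72.1, 94.5 and 93.5 CPM in WT and 66.7, 102 and 86.1 CPM in cKO (-0.03, interval -0.41 to 0.35). Leaving out single libraries turned the sign of Rb1 (0.021 without cKO replicate 3) and of Rbl1 (0.037, 0.029 and 0.13 with WT replicate 2, WT replicate 3 or cKO replicate 1 left out).

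**Figure D3:**
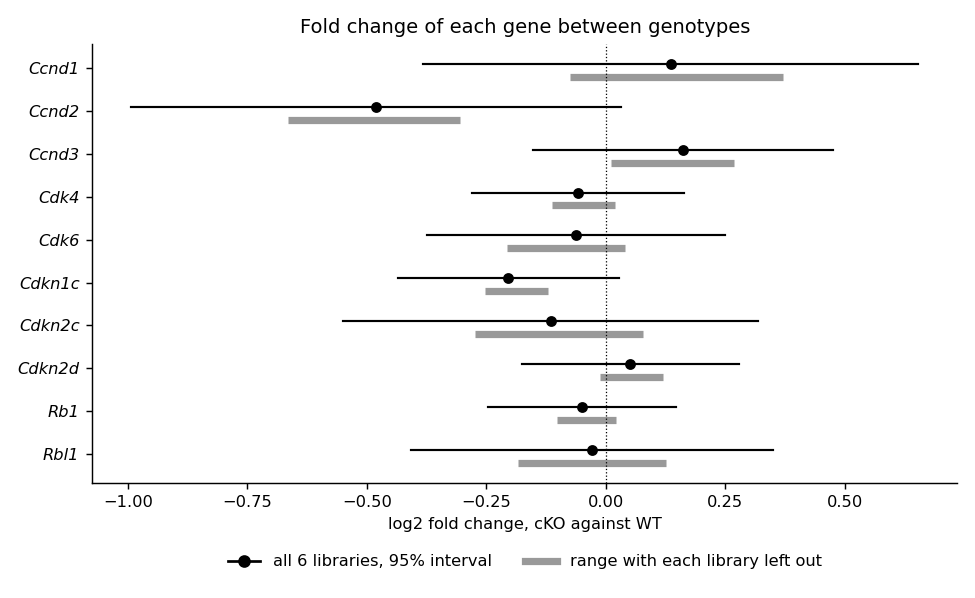
Log2 fold change of each gene in cKO against WT (points) with its 95% interval (thin lines) and the range of the estimate when each library is left out in turn (thick grey bars). All 10 intervals include 0, and the grey bars of Ccnd2, Ccnd3 and Cdkn1c stay on one side of it.

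Rbl1 is itself known as an E2F target, and the promoter windows of the genes were searched for the E2F-type letters TTTCCCGC, TTTCGCGC, TTTGCCGC and TTTGGCGC on both strands. RefSeq windows (GRCm38.p6, from 250 bases before to 50 after the gene start) were at hand for 6 of the 10 genes, and 1 of their 8 windows held a match, that of Rbl1, against 2.26% of 32851 windows of all genes. The match is in capitals in these 30 bases at chr2:157204534-157204563, given on the minus strand, in which Rbl1 is transcribed.
Rbl1: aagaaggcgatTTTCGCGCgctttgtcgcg

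The genes next to the checkpoint gave few differences. The 5 lists by role held 54 genes, of which 52 were tested, and 0 passed after adjustment. At an unadjusted p of 0.05, 1 of the 52 was lower and 0 were higher, a share near that of all genes (1.81% lower and 1.75% higher). Of the fold changes, 21 were positive and 31 were negative, with a median of -0.020 against 0.0019 for all genes. The lower one was E2f3, an activating E2F factor, at 92.3, 93.0 and 85.0 CPM in WT and 76.3, 85.8 and 71.4 CPM in cKO, with WT replicate 3 just under cKO replicate 2. Its log2 fold change was -0.21 (SE 0.08) with an unadjusted p of 0.0363 in edgeR, and the count at that threshold was 0 without WT replicate 1, cKO replicate 1 or cKO replicate 3. Of the 52, 1 had every cKO library below every WT library, E2f1 (log2 fold change -0.14), which was named after its values were seen, where 4.83% of all genes were lower in this way.

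By role, the 11 E2F and DP factors with Rbl2 had 4 positive and 7 negative fold changes (median -0.035). Cyclins E and A with their kinases had 3 positive and 3 negative (median -0.019), and the CDK-activating kinase with the turnover of G1 regulators 7 and 6 (median 0.0033). The 20 E2F target genes of S phase entry, such as those of the replicative helicase and of nucleotide synthesis, lay between -0.12 and 0.055 (median -0.027, 7 positive and 13 negative). Of the other CDK inhibitors, Cdkn1b (p27) was at 160 to 180 CPM with a log2 fold change of -0.03 (SE 0.07) and Cdkn1a (p21) at 5.43 to 8.41 CPM with one of -0.02 (SE 0.19). Cdkn2a and Cdkn2b, the remaining INK4 genes, were not tested, with at most 0.062 and 0.84 CPM in any library, where 3 counts correspond to 0.181 to 0.188 CPM.

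**Figure D4:**
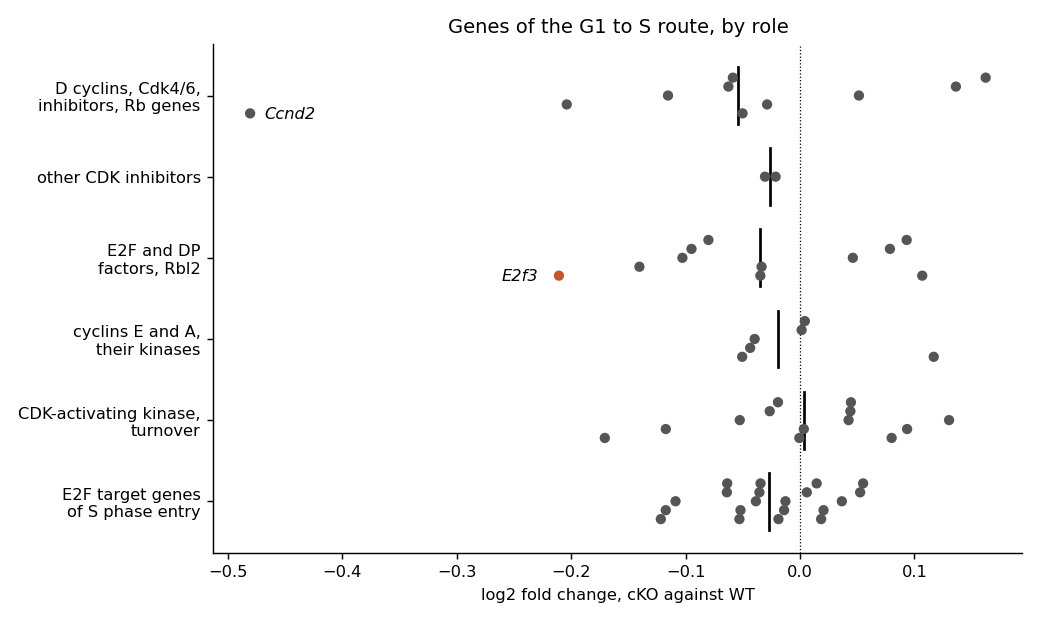
Log2 fold change in cKO against WT for the 10 G1 genes and the 52 tested genes of the 5 role lists, 1 point per gene, with the median of each list as a vertical line and genes with an unadjusted p under 0.05 in orange. Ccnd2 at -0.48 lies farthest from 0, and E2f3 at -0.21 is the only orange point.

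For 7 of the 10 genes the libraries of a genotype spread more widely than for the median gene. The highest WT library of Ccnd2 was 1.597 times the lowest and the highest cKO library 1.627 times the lowest, while for the median gene these ratios were 1.183 and 1.1997. Ccnd1 and Ccnd2 had a larger spread within genotypes than 94.2% and 93.5% of all genes. The same library stood out across the genes, since replicate 1 was the lowest in WT and the lowest in cKO for 8 of 10 (26.8% of all genes) and the highest in both for Cdkn1c and Rb1 (25.2% of all genes).

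Summed markers of radial glia and of neurons moved with that pattern. Summed radial glia markers (Vim the most abundant) were 1808, 2446 and 2484 CPM in WT and 1771, 2626 and 2370 CPM in cKO. The sum was lowest in replicate 1 of each genotype, while summed markers of cortical neurons were highest there, at 5877, 5014 and 5519 CPM in WT and 6075, 4895 and 4836 CPM in cKO. Intermediate progenitor markers were also highest there, summing to 1412, 1180 and 1272 CPM in WT and 1307, 1277 and 1064 CPM in cKO. Of the radial glia markers, Hes5 was not lowest in replicate 1 of either genotype, nor Sox2 in that of WT. Both were named after their values were seen. In bulk tissue, fewer cells of a type and less RNA per cell cannot be told apart.

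**Figure D5:**
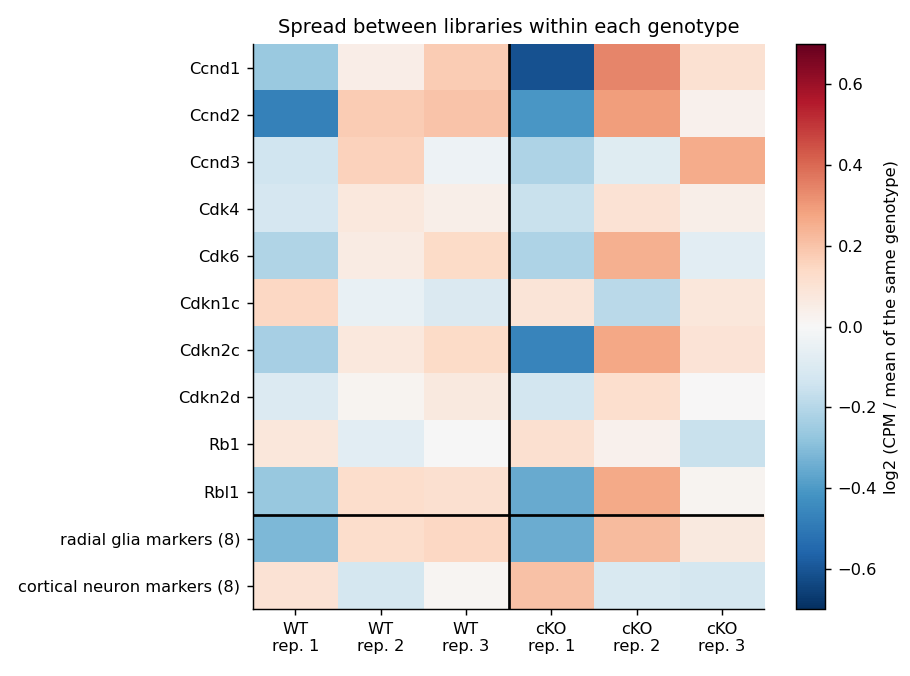
Log2 ratio of each library's CPM to the mean of its own genotype for the 10 genes, the 8 radial glia markers summed and the 8 cortical neuron markers summed, blue below and red above the mean. Replicate 1 of both genotypes is blue for 8 genes and for the radial glia markers (-0.31 and -0.35), and red for Cdkn1c, Rb1 and the neuron markers (0.10 and 0.21).

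Expressed per 1000 CPM of radial glia markers, a scale chosen after the data had been seen, Ccnd2 was at 551, 641 and 641 in WT and at 422, 463 and 428 in cKO. The genotypes were separate on this scale, with the cKO libraries lower, and the means were 611 ± 51.5 and 438 ± 22.2 (SD, n = 3 each), a ratio of 0.717. Cdkn2c was the other gene of the 10 without overlap, at 12.74, 11.64 and 11.97 in WT and 10.25, 11.48 and 11.27 in cKO. Vim, the most abundant marker of the sum, had its highest level (1018 CPM) in cKO replicate 3, the library with mesenchyme markers. Whether other cells add to the sum there was not tested. Over all genes 0.847% were lower in this way, 1.23% were higher and 2.08% were separate in either direction. The marker sum was lowest in replicate 1 of both genotypes, so division by it adds spread to genes without that pattern. Ccnd2 and Cdkn2c were also lowest there, so these shares are not a like background for them. Cdkn1c overlapped on this scale, at 69.9, 45.0 and 42.9 in WT and 59.6, 33.2 and 44.3 in cKO. Relative to the neuron markers, 0 of the 10 were lower without overlap (1.57% of all genes), and Ccnd2 overlapped at 170 to 313 in WT and 123 to 249 in cKO per 1000 CPM.

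Genes with the pattern most like that of Ccnd2 were taken as the 5 with the smallest root mean square distance between centred log2 CPM profiles over the 6 libraries, among 9878 genes with a mean of at least 10 CPM. They were Cenpf (0.11), a kinetochore protein, Rpsa (0.12), a protein of the small ribosomal subunit, Adgrv1 (0.13), an adhesion receptor, Eif2s3x (0.14), a translation initiation factor, and Nusap1 (0.14), a spindle protein. The distance covers the difference between genotypes too, so the sign and overlap of these genes follow from how they were picked, and their log2 fold changes of -0.30, -0.37, -0.33, -0.35 and -0.22 are a description only. Rpsa is another transcript the study selected for follow-up partly from these libraries. Within the list of 10, Cdkn2c (0.21), Rbl1 (0.24) and Cdk6 (0.25) lay nearest to Ccnd2, and Cdkn1c (0.43) farthest.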

How the data were processed

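The 10 genes and the lists of related genes and markers were chosen with earlier results of these data known. RNA of E13.5 cortex was extracted with Trizol and sequenced on a DNBSEQ platform. The submitters' processing notes name HISAT2 2.2.1, Bowtie2 2.4.5 and RSEM 1.3.1 with GRCm38, and the annotation is not given in the sources used here. The authors deposited estimated counts per gene, not normalised, with 10.9% of the values not exactly whole. The deposited TPM values correct for transcript length and share a common sum in each library. The FPKM values deposited by the authors were not used in any test, nor were 6 columns of group averages. The series description mentions 3 sequencing batches without assigning libraries, so no within-batch value can be given.

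Counts were rounded, genes kept with filterByExpr (minimum count 10, minimum total 15), scaled by TMM and tested for genotype with edgeR 4.0.16 (glmQLFit, glmQLFTest; R 4.3.3), with Benjamini-Hochberg adjustment over 13340 genes and a threshold of 0.05. The SE is the log2 fold change divided by the square root of F. The floor (3 counts of a library total, counting error only) was 0.181 to 0.188 CPM. With 3 against 3 libraries, the smallest two-sided p of an exact permutation test is 0.1, so ratios and sums are given without p. Named were the 10 genes, Ybx1, Cdkn1a, Cdkn1b, up to 3 genes per role list with the lowest unadjusted p under 0.05, the 5 genes nearest to Ccnd2, and the most abundant marker of each other cell type, of which 1 is not reported here. Other genes are marked as named after their values were seen, except overlapping genes, named for their position, and the role-list genes Cdkn2a and Cdkn2b, named because the filter removed them. Alternatives were DESeq2 1.42.0, limma-voom, other scaling factors (upper-quartile, RLE), other filters (none, or 10 counts in all libraries), limma on log2(TPM + 1) (limma 3.58.1), robust empirical Bayes, a replicate block, and libraries left out. Scripts were tested on simulated data. No 2 libraries were duplicates, with equal counts for at most 1.66% of genes.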

Additional observations from a re-analysis of the deposited data

How the results depend on the processing

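None of the 10 genes passed an adjusted p of 0.05 in any of the 16 alternatives. Ccnd2 and Cdkn1c were negative in all 16 (-0.67 to -0.31 and -0.27 to -0.12) and Ccnd3 positive in all 16 (0.011 to 0.27). These fits reuse the same libraries, so the shared signs are not independent. The Ccnd3 value of 0.011 was the one without cKO replicate 3, the library with mesenchyme and epidermis markers, so its size depended on that library. The count of the 10 that were lower at an unadjusted p of 0.05 was 1 with DESeq2 and with limma on log2(TPM + 1), and 0 to 1 with single libraries left out, the 1 being Ccnd2 each time (without WT replicate 1 or cKO replicate 2). The count higher was 0 to 1, the 1 being Ccnd1 without cKO replicate 1 (0.37). The count for the role lists, lower, was 0 to 2 with single libraries left out and 0 with both WT replicate 2 and cKO replicate 3 left out. The fits that left out single libraries gave ranges of -0.074 to 0.37 (Ccnd1), -0.11 to 0.020 (Cdk4), -0.21 to 0.041 (Cdk6), -0.27 to 0.077 (Cdkn2c), -0.012 to 0.12 (Cdkn2d), -0.10 to 0.021 (Rb1) and -0.18 to 0.13 (Rbl1), so no direction is given for these 7. With both libraries out, Cdk6 was at 0.0018 and Rbl1 at 0.028. The cause was not tested. Division by the radial glia markers, chosen after seeing the data, kept all 10 signs.

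The replicate number is not stated to pair libraries, so it was not in the main model. In their deviations from the genotype means, libraries with the same number correlated at 0.45, 0.32 and -0.0056. Those with different numbers correlated between -0.45 and 0.28, and these values do not settle whether the numbers are pairs. At 3 of 3 numbers, cKO lay below WT for Ccnd2, Cdk4 and Cdkn1c. With a replicate block, 2 of the 10 were lower at an unadjusted p of 0.05, Ccnd2 (0.000189, adjusted p 0.254) and Cdkn1c (0.0204, adjusted p 0.569), and 1090 genes passed that threshold against 476 without it. Of genes at that threshold, 49.2% were higher with TMM, 60.0% without a filter and 59.5% with TPM. Depth did not limit the 10 genes, whose lowest level (18.1 CPM) lies far above the floor.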
